A study of Rattus norvegicus with 8 samples.

Results

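The genes described here are RT1-A1, RT1-A2 and RT1-A3, which encode classical class I heavy chains of the rat major histocompatibility complex (MHC), and B2m, which encodes their light chain, beta-2-microglobulin. They were chosen by gene symbol, as every probe that the array annotation assigns to 1 of these 4 symbols. Each symbol had 1 probe, so 4 genes of the 13337 with a symbol on the array were followed over all 8 arrays. Adipose-derived mesenchymal stem cells (ASCs) of 2 inbred rat strains were profiled, LEW (Lewis/Jms) and PVG (Piebald Virol Glaxo), all from rats of 8 weeks. The cells were kept with PBS as the control or with lipopolysaccharide (LPS), the bacterial endotoxin sensed through TLR4, at 1 µg/ml, and were harvested after 24 h or 48 h. By the labels, the cells of each of 3 rats of a strain were divided over the 4 conditions, and the RNA of 3 rats was pooled for each array, so that by this account the 4 arrays of a strain hold cells of the same rats. Each of the 4 groups of strain and treatment thus had 2 arrays, a 24 h and a 48 h array, and p-values measure the spread between these arrays and not the spread between rats.

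A class I molecule is a heavy chain that sits at the cell surface together with beta-2-microglobulin and a short peptide from the inside of the cell, and it is read there by CD8 T cells and by natural killer cells. In the rat the classical, peptide-presenting heavy chains are encoded in the RT1-A region of the MHC, whose gene number and sequences differ between haplotypes. B2m lies outside the MHC. LPS and interferons raise class I transcription in many cell types through NF-kB and IRF factors that bind close to the start of these genes. The methods give RT1l as the haplotype of LEW and RT1c as that of PVG, so the RT1-A genes measured here differ in sequence between the strains. The base sequences of the probes were not used here, and a variant under a probe, a related RT1-A gene that binds the same probe and a different amount of mRNA cannot be told apart for RT1-A1, RT1-A2 and RT1-A3. Whether the strains differ in sequence under the B2m probe was not examined either.

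In RefSeq's rat assembly GRCr8, a genome of the BN strain, which carries a further haplotype, the coding genes follow each other in the order Ring1, RT1-A3, RT1-A2, RT1-A1 and Vps52 on chromosome 20, with 0 other coding genes between the 3 heavy chain genes. B2m lies on chromosome 3. All 4 genes had a RefSeq promoter of 300 bases, 250 before the start of the gene and 50 after it, and 1 stretch of 30 bases of each is shown because it holds the binding motifs of the factor families that LPS and interferon act through. Capitals mark matches to the NF-kB consensus (kB motif, searched by its name with degenerate positions) and to an IRF element (GAANNGAAA or GAAANNGAA), both searched on both strands, and all windows are read on the plus strand, which is the strand of each gene. 
RT1-A1, chr20:4907083-4907112: GGGGATTCCCCatctccccagTTTCACTTC
RT1-A2, chr20:4872697-4872726: GGGGATTCCCCatcgcccagTTTCACTTCt
RT1-A3, chr20:4849281-4849310: GGGGATTCCCCatctccccagTTTCACTTC
B2m, chr3:129549177-129549206: catGAAACTGAAaatgGGAAAGTCCCtctg

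The 3 heavy chain windows put the kB motif first and the IRF element 10, 9 and 10 bases after it in RT1-A1, RT1-A2 and RT1-A3, and the windows of RT1-A1 and RT1-A3 are the same letter for letter. In B2m the order is turned, with the IRF element first and 4 bases between the motifs. The kB motif began 126, 174, 170 and 137 bases before the annotated start in RT1-A1, RT1-A2, RT1-A3 and B2m. Of 33469 rat promoters of the same length, 4.18% held the kB motif, 16.8% an IRF element and 0.565% both. A CCAAT box (CCAAT) and the core of a cAMP response element (TGACG) also stood in all 4 promoters, and in 37.5% and 21.2% of all promoters. The promoters of the heavy chain genes were alike along most of their length, with 92.9% identity between RT1-A1 and RT1-A2 over 252 aligned positions, 89.8% between RT1-A1 and RT1-A3 over 256 and 87.1% between RT1-A2 and RT1-A3 over 302. These letters are those of BN, and the promoters of LEW and PVG were not analysed here.

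The cells were checked for their type on the same arrays. All 6 mesenchymal markers with a probe, among them Thy1 and Col1a1, were detected on all 8 arrays, although 3 of them differed between the strains, and the adipocyte genes Adipoq and Lep on none. The pan-leukocyte gene Ptprc and 4 other leukocyte markers of 9 (Cd74, Cd163, Cd3e and Tyrobp) were undetected on every array, while Fcer1g was detected on all of them. Itgam and Aif1 were each detected on 3 PVG arrays and 0 LEW arrays, and Cd79b on 1 PVG array and 0 LEW arrays. Of the endothelial markers with a probe, Cdh5 was undetected on every array and Tek was detected on 2 LEW arrays and 1 PVG array. The 75th percentile of the signals lay between 123 and 153 and was brought to the same value on every array by scaling, and 8947 to 9509 of 22523 probes were detected on an array, at a detection p under 0.05 against the negative controls. A scaled signal of 72.9 to 84.9 was the lowest that was called detected, depending on the array. Signals of different probes are not on a common scale, so each gene is compared only with itself.

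RT1-A1 was the heavy chain gene with the higher signal in LEW. Its scaled signal in LEW was 726 at 24 h and 855 at 48 h in control ASCs, and 1050 and 1772 in LPS-treated ASCs. In PVG it was 191 and 168 in control ASCs, and 230 and 284 in LPS-treated ASCs. Every LEW array was above every PVG array, and all 8 arrays were detected. The 4 groups lay in the order LEW LPS, LEW control, PVG LPS and PVG control, and no neighbours in this order overlapped. Over both treatments the difference of PVG minus LEW was -2.28 ± 0.17 on the log2 scale (SE, 4 arrays per strain), 4.85-fold lower in PVG, and it passed the test with limma (adjusted p = 4.78e-05). The ratio of LEW to PVG at the same treatment and time was 3.81 and 5.10 in control ASCs at 24 h and 48 h, and 4.57 and 6.25 in LPS-treated ASCs.

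RT1-A2 was measured only in PVG. In PVG its scaled signal was 368 at 24 h and 323 at 48 h in control ASCs, and 505 and 550 in LPS-treated ASCs. In LEW it was 65.1 and 63.9 in control ASCs and 61.7 and 70.8 in LPS-treated ASCs, with detection p between 0.290 and 0.858, so that none of the 4 LEW arrays was above its negative controls. The signal in PVG was therefore at least 5.23-fold higher. This bound sets the mean of the 4 PVG arrays against the lowest signal called detected on each LEW array. By the same bound the PVG signal was at least 4.27-fold higher in control ASCs and at least 6.42-fold higher in LPS-treated ASCs. The strain difference passed the test with limma (adjusted p = 1.14e-06), but the probe entered the fit through the PVG arrays alone, so its passing adds no support. A LEW level below the detection limit, an RT1-A2 sequence in LEW that this probe does not bind and a haplotype without the gene cannot be told apart.

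RT1-A3 was also higher in PVG, but here both strains were detected on every array. In PVG its scaled signal was 574 at 24 h and 743 at 48 h in control ASCs, and 912 and 794 in LPS-treated ASCs. In LEW it was 145 and 162 in control ASCs and 175 and 280 in LPS-treated ASCs. The lowest PVG array was above the highest LEW array, and the groups lay in the order PVG LPS, PVG control, LEW LPS and LEW control with no overlap between neighbours. The difference of PVG minus LEW was 2.02 ± 0.16 on the log2 scale (SE, 4 arrays per strain), 4.05-fold, and passed the test with limma (adjusted p = 7.57e-05). At the same treatment and time PVG was 3.97-fold and 4.57-fold higher in control ASCs at 24 h and 48 h, and 5.22-fold and 2.84-fold higher in LPS-treated ASCs.

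B2m, the shared light chain, had the smallest strain difference of the 4 genes. In LEW its scaled signal was 7092 at 24 h and 7980 at 48 h in control ASCs, and 7459 and 10130 in LPS-treated ASCs. In PVG it was 4421 and 4984 in control ASCs and 5613 and 5770 in LPS-treated ASCs. All LEW arrays were above all PVG arrays, while the control and LPS arrays of LEW overlapped. The difference of PVG minus LEW was -0.65 ± 0.11 on the log2 scale (SE, 4 arrays per strain), 1.57-fold lower in PVG, and it passed the test with limma (adjusted p = 0.00598). It did not pass an analysis of variance over the 4 groups (adjusted p = 0.0825), which estimates the spread of each probe alone and has no term for time. The paper names LPS condition and treatment duration as variables of a 2-way analysis of variance, so this is not the same test. With time as a block in the limma fit, B2m passed (adjusted p = 0.000515). On all 8 arrays between 98.5% and 99.4% of the probes had a lower signal than B2m.

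**Figure D1:**
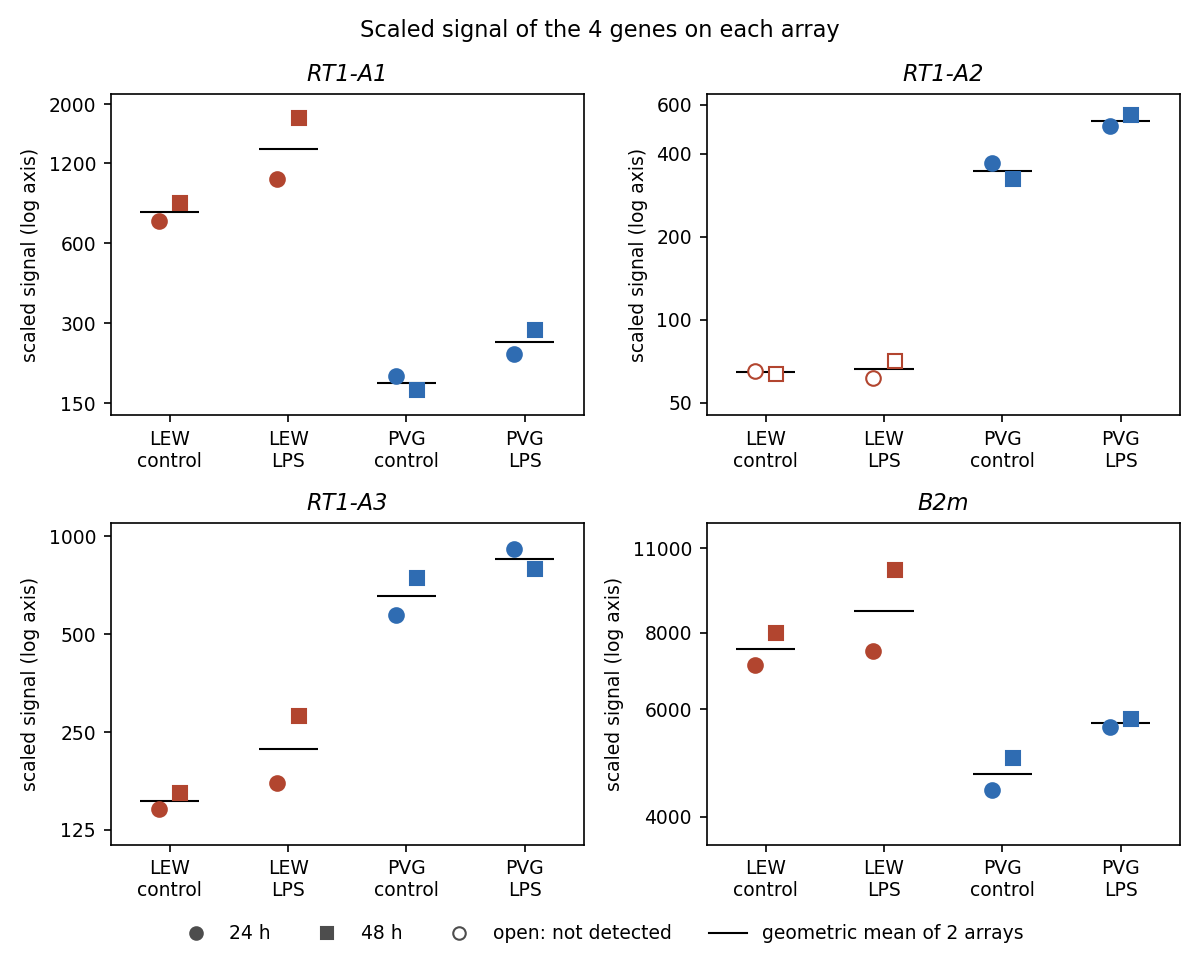
Scaled signal of RT1-A1, RT1-A2, RT1-A3 and B2m (y axis, log scale, own range in each panel) in the 4 groups of strain and treatment; circles are 24 h arrays, squares 48 h arrays, open symbols arrays without detection, and lines the geometric mean of the 2 arrays of a group. RT1-A1 and B2m lie higher on all LEW arrays (red), RT1-A2 and RT1-A3 on all PVG arrays (blue), and RT1-A2 is open on all 4 LEW arrays.

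All 4 genes thus passed the strain test, 2 higher in PVG and 2 lower, where 14.9% of the 9552 probes tested passed it, 7.45% higher in PVG and 7.46% lower. RT1-A2 is counted here although it entered the fit through the PVG arrays alone. The median difference over all tested probes was -0.005. The same directions held within each treatment. In control ASCs RT1-A1, RT1-A3 and B2m passed, where 6.94% of probes did. The differences of PVG minus LEW on the log2 scale were -2.14 for RT1-A1 (adjusted p = 0.00105), 2.09 for RT1-A3 (adjusted p = 0.000956) and -0.68 for B2m (adjusted p = 0.0398, all by limma). In LPS-treated ASCs RT1-A1 and RT1-A3 passed, where 6.05% of probes did, with -2.42 for RT1-A1 (adjusted p = 0.000576) and 1.94 for RT1-A3 (adjusted p = 0.00157, both by limma). RT1-A2 also passed in both (adjusted p = 3.54e-05 and 1.87e-05 by limma), but through the PVG arrays alone, so its passing adds no support. Since no LEW array detected it, its difference within each treatment is known only as the lower bound given above. B2m differed by -0.61 in LPS-treated ASCs and did not pass (adjusted p = 0.0655 by limma), with -0.83 (adjusted p = 0.0106) when the LEW LPS array of 24 h was left out and -0.39 (adjusted p = 0.387) when that of 48 h was. With time as a block it passed (adjusted p = 0.0105). The call for B2m in control ASCs rested on single arrays, and was lost when either PVG LPS array, or any of the 4 control arrays, was left out (adjusted p up to 0.245).

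Fcer1g, an immunoglobulin receptor chain of myeloid cells, averaged 101 on the LEW arrays and 147 on the PVG arrays in scaled signal and passed the strain test (log2 difference 0.54, adjusted p = 0.00496 by limma). Aif1 (0.30, adjusted p = 0.0638) and Itgam (0.01, adjusted p = 0.969, both by limma), which were detected on PVG arrays alone, did not pass. The summed scaled signal of the 9 leukocyte markers was 646 to 674 on LEW arrays and 653 to 788 on PVG arrays. Of the mesenchymal markers, Pdgfra was lower in PVG (-1.21, adjusted p = 0.0190) and Itgb1 (0.82, adjusted p = 0.000260) and Nt5e (0.57, adjusted p = 0.0455, all by limma) were higher, while the summed signal of the 6 was 18940 to 23930 on LEW arrays and 19700 to 26270 on PVG arrays. Ptprc was undetected on all 8, and the part of other cells or of the state of these cells in the class I differences was not tested. In RNA of whole cultures, fewer cells of a type and less RNA per cell cannot be told apart.

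LPS was the other factor of the design. RT1-A1, RT1-A3 and B2m had a higher mean with LPS in both strains and RT1-A2 in PVG, but none of the 4 passed the test over both strains, which 2.26% of probes passed (139 higher and 77 lower of 9552). The log2 difference of LPS minus control was 0.65 ± 0.17 for RT1-A1 (SE, 4 arrays per treatment, adjusted p = 0.0992 by limma), 0.46 ± 0.16 for RT1-A3 (adjusted p = 0.242) and 0.24 ± 0.11 for B2m (adjusted p = 0.427). For RT1-A2 the fitted 0.32 (adjusted p = 0.138 by limma) averages PVG with LEW arrays that were all below detection, so only its difference within PVG is a measured one. The median over all tested probes was -0.008. In a fit with time as a block, which compares arrays of the same hour, RT1-A1 passed (adjusted p = 0.0146 by limma) and the other 3 did not.

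The arrays of the same hour show how uneven this was. RT1-A1 with LPS was 1.45 times its control at 24 h and 2.07 times at 48 h in LEW, and 1.21 and 1.69 times in PVG, so that both strains had the larger ratio at 48 h. RT1-A2 in PVG was 1.37 and 1.70 times its control, and in LEW it was below detection throughout. RT1-A3 was 1.21 and 1.72 times its control in LEW and, in the opposite order, 1.59 and 1.07 times in PVG. B2m stayed between 1.05 and 1.27 times its control in all 4 pairs. Each ratio compares 1 array with 1 array, and the difference between the hours was not tested.

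Between 24 h and 48 h the signals of RT1-A1, RT1-A3 and B2m differed more in LPS-treated than in control LEW ASCs. In LEW the 48 h array was 1.69 times the 24 h array for RT1-A1 with LPS and 1.18 times in control ASCs, 1.60 and 1.12 times for RT1-A3, and 1.36 and 1.12 times for B2m. In PVG the same ratio was 1.23 with LPS and 0.880 in control ASCs for RT1-A1, 1.09 and 0.878 for RT1-A2, 0.871 and 1.30 for RT1-A3, and 1.03 and 1.13 for B2m. With LPS the LEW ratio was thus above the PVG ratio for RT1-A1, RT1-A3 and B2m, which is a comparison of 4 single arrays for each gene, with no test. The LEW LPS array of 48 h held the highest signal of all 8 arrays for RT1-A1 and B2m, and the highest LEW signal for RT1-A3.

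Within LEW the LPS difference was 0.79 for RT1-A1 (adjusted p = 0.225), 0.53 for RT1-A3 (adjusted p = 0.484) and 0.21 for B2m (adjusted p = 0.805, all by limma), RT1-A2 was below detection, and 0 of 4 passed where 0.649% of probes did. These values turned on which LEW LPS array was used. Without that of 24 h RT1-A1 had a difference of 1.17 (adjusted p = 0.00887) and RT1-A3 one of 0.87 (adjusted p = 0.0444), and over both strains both then also passed (adjusted p = 0.00363 and 0.0197). Without that of 48 h the LEW difference was 0.41 for RT1-A1 (adjusted p = 0.798) and 0.19 for RT1-A3 (adjusted p = 1.00). Either way LEW LPS is left with 1 array, which is assumed to vary like the other groups. Within PVG the differences were 0.51 for RT1-A1 (adjusted p = 0.711), 0.61 for RT1-A2 (adjusted p = 0.119), 0.38 for RT1-A3 (adjusted p = 0.824) and 0.28 for B2m (adjusted p = 0.821, all by limma), and again 0 of 4 passed, where 0.314% of probes did. That of RT1-A3 moved to 0.20 when the 24 h control array of PVG was left out, and to 0.57 when the 48 h one was. With time as a block, RT1-A1 in LEW (adjusted p = 0.0461) and RT1-A2 in PVG (adjusted p = 0.0433) passed.

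Whether the strains answered LPS differently was tested as the interaction, the LPS difference of PVG minus that of LEW. It was -0.28 ± 0.33 for RT1-A1, 0.57 ± 0.18 for RT1-A2, -0.15 ± 0.32 for RT1-A3 and 0.07 ± 0.23 for B2m (SE, 2 arrays per group). None passed (adjusted p = 0.999 each by limma), and 0.0314% of probes did, 3 of 9552. RT1-A2 had the smallest unadjusted p of the 4 (0.0117), and its LEW arrays were all below detection. For RT1-A1, RT1-A3 and B2m the standard error was larger than the difference itself, so differences of this size were not detectable with 2 arrays per group.

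**Figure D2:**
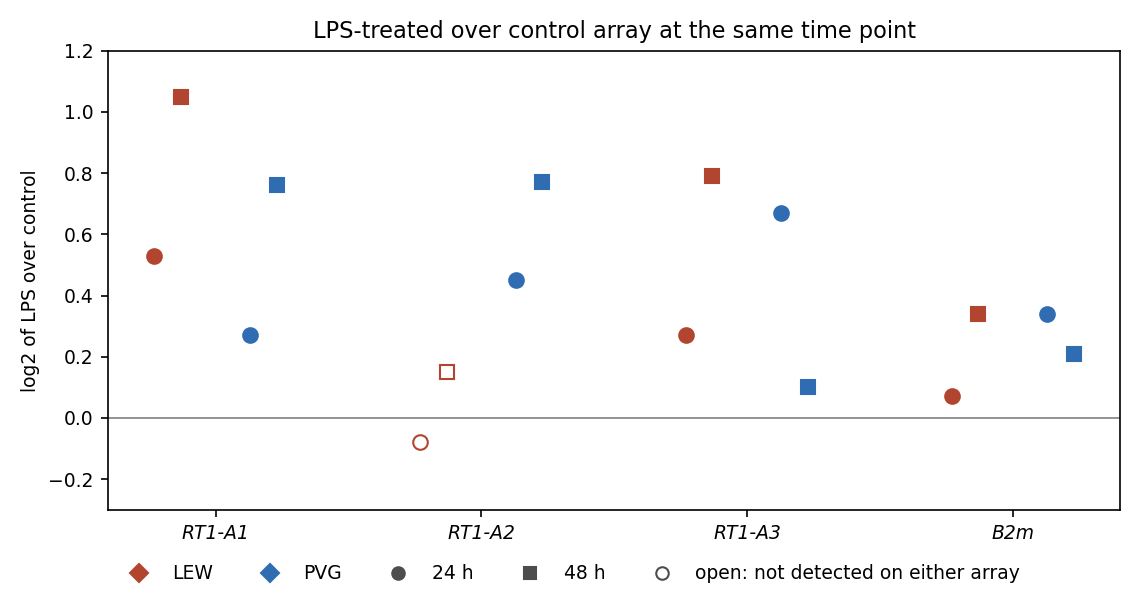
Log2 ratio of the LPS array to the control array of the same strain and hour (y axis) for the 4 genes (x axis); LEW is red and PVG blue, circles are 24 h and squares 48 h, and open symbols stand for RT1-A2 in LEW, which no array detected. The ratios between detected arrays run from 0.07 for B2m in LEW at 24 h to 1.05 for RT1-A1 in LEW at 48 h. They share arrays and pools of rats, and none of the 4 genes passed the LPS test over both strains.

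The other class I genes of the MHC, most of them non-classical genes of the RT1-C/E, RT1-M, RT1-N, RT1-S and RT1-T groups, were read beside the RT1-A genes. They were listed by symbol, and RefSeq annotates RT1-M10-1 and RT1-T24-2 among them as long noncoding RNAs. Of 24 such genes on the array 11 were tested, 12 were undetected on all 8 arrays and RT1-T18 was detected on 2 LEW arrays only and not tested. The undetected genes were RT1-CE1, RT1-CE2, RT1-CE11, RT1-CE13, RT1-M1-2, RT1-M1-4, RT1-M4, RT1-M5, RT1-O1, RT1-S2, RT1-T24-1 and RT1-T24-2. In the strain test 2 of the 11 were higher in PVG and 6 lower, where 7.45% and 7.46% of all tested probes were, with a median difference of -0.38 against -0.005 over all tested probes. Of these 8, RT1-CE5, RT1-CE10 and RT1-CE16 entered the fit through the arrays of 1 strain alone, so their passing adds no support. These probes raise the same question of sequence differences as the RT1-A probes.

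RT1-CE15 came closest to RT1-A1. Its scaled signal in LEW was 235 at 24 h and 195 at 48 h in control ASCs and 415 and 411 with LPS, and in PVG it was 67.6 and 70.0 in control ASCs and 108 and 84.5 with LPS, where the 2 LPS arrays were detected and the 2 control arrays were not. Its fitted difference of PVG minus LEW was -1.87 (adjusted p = 1.66e-05 by limma) and that of LPS minus control over both strains 0.71 (adjusted p = 0.0133), and the sizes of both depend in part on the background of the PVG control arrays. RT1-M6-2 (-0.54, adjusted p = 0.00996), RT1-T24-4 (-0.45, adjusted p = 0.0144), RT1-M10-1 (-0.55, adjusted p = 0.0273) and RT1-M3-1 (-0.47, adjusted p = 0.0481, all by limma) were lower in PVG and detected on all 8 arrays. RT1-CE5 was detected on the 4 LEW arrays alone and was at least 1.22-fold higher there.

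RT1-CE16 and RT1-CE10 had the detection pattern of RT1-A2, with all 4 PVG arrays detected and none of the LEW arrays. The bound was at least 1.47-fold for RT1-CE16 and at least 1.12-fold for RT1-CE10, both higher in PVG. RT1-S3 (-0.31, adjusted p = 0.0694), RT1-CE7 (-0.01, adjusted p = 0.974) and RT1-N3 (0.16, adjusted p = 0.683) did not pass. The LPS test was passed by RT1-T24-4 (0.71, adjusted p = 0.00881) and RT1-M6-2 (0.66, adjusted p = 0.0165, both by limma) besides RT1-CE15, 3 of the 11 where 2.26% of all tested probes passed. The median over the 11 was 0.42 against -0.008 over all tested probes. No RT1-A gene passed the LPS test, but RT1-A1 had a difference of 0.65 with an SE of 0.17, where RT1-M6-2 had an SE of 0.11. The difference between the other class I genes and the RT1-A genes in the LPS response was not tested.

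**Figure D3:**
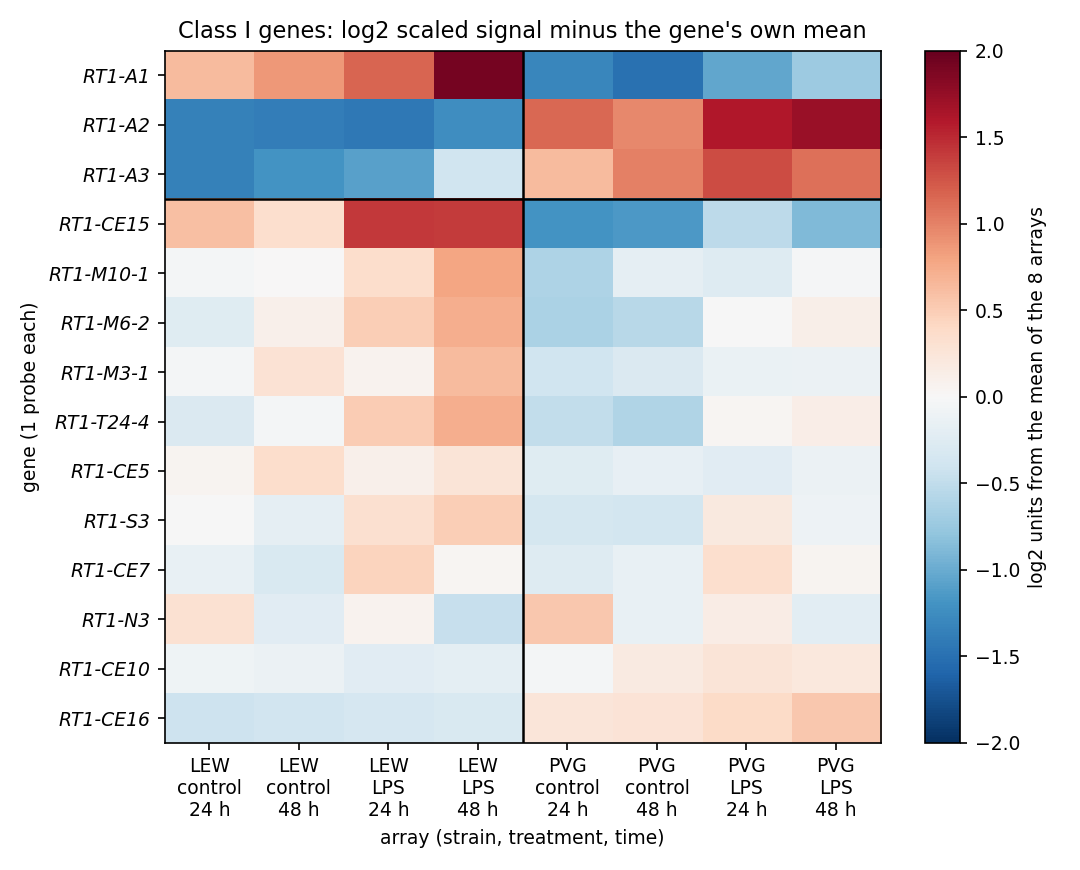
Log2 scaled signal of the 3 RT1-A genes (above the line) and the 11 other class I genes tested (below it, ordered by strain difference) on each of the 8 arrays, as the difference from the gene's own mean over the arrays. RT1-A1 and RT1-CE15 are high (red) on the LEW arrays and higher with LPS, and RT1-A2, RT1-A3 and RT1-CE16 are high on the PVG arrays. RT1-CE10 differs little, with a scaled signal of 79.8 in PVG and 76.9 in LEW on the control arrays of 24 h.

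Peptides reach class I molecules through the immunoproteasome, the TAP transporter and the loading complex. Of 13 tested probes of this list, which covers 12 of its 13 genes, 6 were higher in PVG and 1 lower, where 7.45% and 7.46% of all tested probes were (median difference 0.35 against -0.005), and Erap1, a peptide-trimming aminopeptidase, was undetected. Psmb8, a catalytic immunoproteasome subunit encoded in the MHC, differed most, with scaled signals of 150 to 220 in LEW and 1207 to 1716 in PVG (log2 difference 2.97, adjusted p = 7.67e-06 by limma). Tap1, a subunit of the transporter (0.58, adjusted p = 0.00493), and Tapbp, tapasin, which bridges the transporter and the heavy chain (0.63, adjusted p = 0.00118, both by limma), are also encoded in the MHC and were higher in PVG. For the MHC genes of this list too, a variant under the probe and a different amount of mRNA cannot be told apart. Psme1, a subunit of the proteasome activator PA28 (0.43, adjusted p = 0.0175), lies on chromosome 15. Psmb9, the other immunoproteasome subunit encoded beside Tap1, was detected on 3 PVG arrays and on 0 LEW arrays and was at least 1.07-fold higher in PVG. It is 1 of the 6 and entered the fit through the PVG arrays alone, so its passing adds no support. Tapbpl, a tapasin-related loading factor encoded on chromosome 4, went the other way (-0.71, adjusted p = 0.00326), as B2m did. None of the 13 probes passed the LPS test (median difference 0.07), which 2.26% of all tested probes passed.

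**Figure D4:**
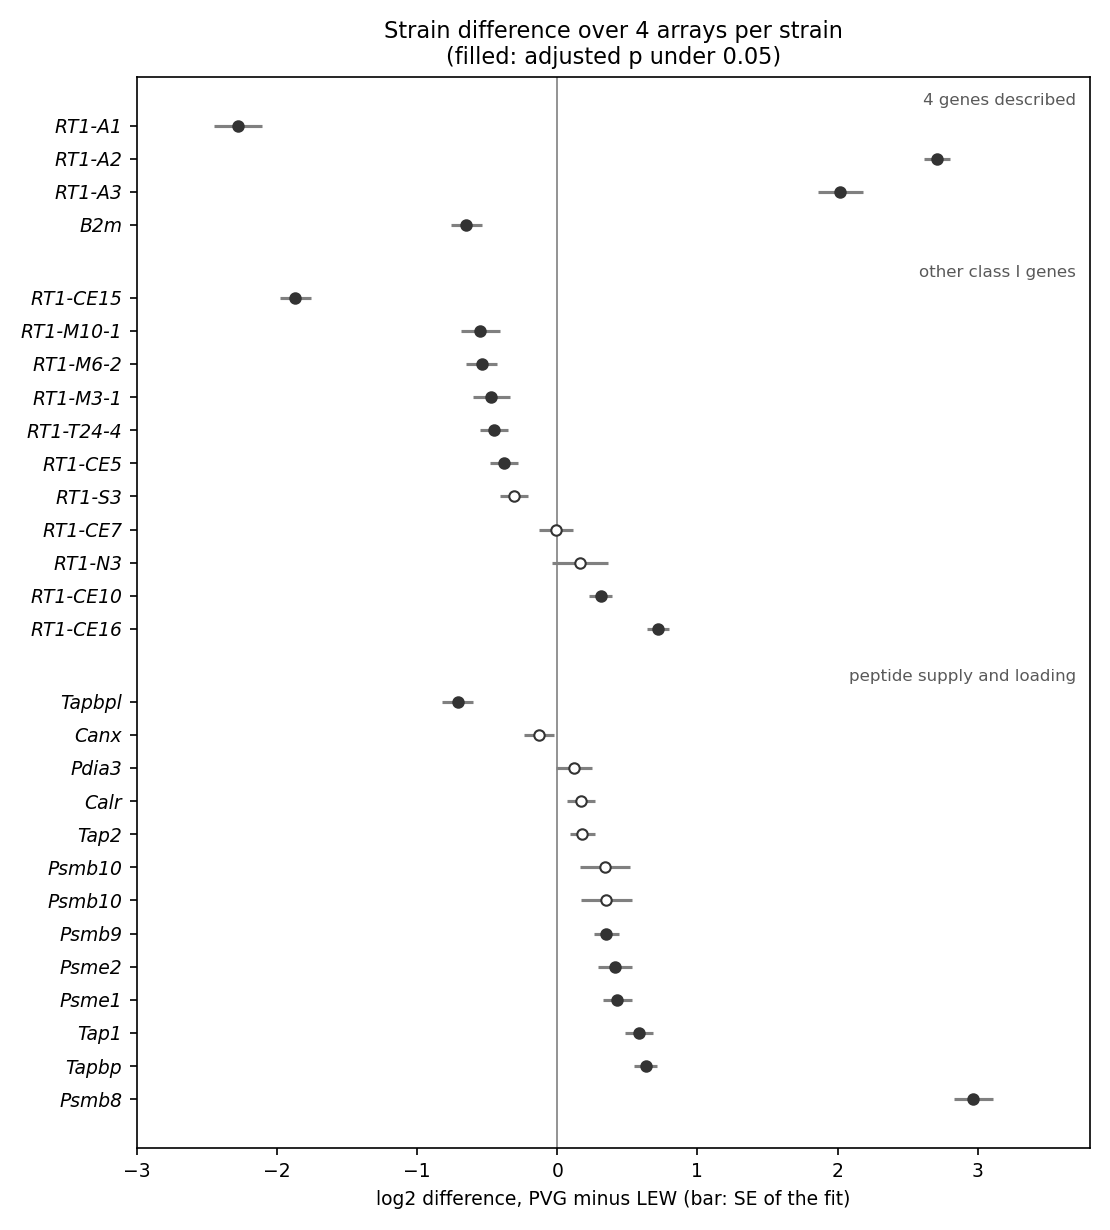
Log2 difference of PVG minus LEW (x axis, bars are the SE of the fit, 4 arrays per strain) for the 4 genes and for the tested probes of the other class I genes and of the peptide supply and loading list (y axis); filled points passed the test. RT1-A2, RT1-A3 and Psmb8 lie above 2 and RT1-A1 below -2, and the values of genes undetected in 1 strain, such as RT1-A2, depend in part on the background.

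Beta-2-microglobulin also pairs with heavy chains that are not encoded in the MHC. Of the 4 with a probe, Cd1d1, which presents lipids, differed by -0.04 between the strains, Fcgrt, the neonatal Fc receptor, by -0.07, and Hfe, a regulator of iron uptake, by 0.34 (adjusted p = 0.890, 0.903 and 0.110 by limma), and Mr1, which presents vitamin metabolites, was detected on 3 of 8 arrays and not tested. None of the 3 tested passed the LPS test, which 2.26% of all tested probes passed. Transcriptional regulators of class I were read from a list of which 11 genes had a probe. Irf1, an activator that binds IRF elements, was higher in PVG, with scaled signals of 178 to 263 in LEW and 334 to 389 in PVG (log2 difference 0.65, adjusted p = 0.00276 by limma). The other 6 regulator probes tested, among them Rela (0.19, adjusted p = 0.280) and Nfkb1 (-0.10, adjusted p = 0.604, both by limma), did not pass. For LPS 0 of the 7 regulator probes tested passed, where 2.26% of all tested probes did.

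The genes whose log2 signal followed each of the 4 most closely over the 8 arrays were looked up among 7592 probes with a symbol. RT1-A1 was followed by Hmox1, heme oxygenase (r = 0.995), Shc1, a signalling adaptor (r = 0.991), and Lrrc23 (r = 0.987). RT1-A2 was followed by RT1-CE16 (r = 0.992), Pawr (r = 0.989) and Cyp11b1 (r = 0.988), and RT1-A3 by Rbm46 (r = 0.987), Gng11, a G protein subunit (r = 0.984), and Gata6, a transcription factor (r = 0.979). B2m was followed by Pappa, a protease of IGF-binding proteins (r = 0.987), Ankrd42 (r = 0.985) and Commd4 (r = 0.982). RT1-A2 and RT1-CE16 were both below detection on the 4 LEW arrays, so their r mostly restates that they were detected in PVG alone. Rbm46 averaged a scaled signal of 75.2 in LEW, where the lowest signal called detected was 72.9 to 84.9 depending on the array. Its r with RT1-A3 thus depends in part on the background. These are Pearson correlations over 8 arrays that share their pools of rats, and the strain difference is the main part of the variation in each pair.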

How the data were processed

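RNA of LEW and PVG ASCs was hybridized to 8 Illumina RatRef-12 arrays. The authors deposited signal intensities of 22523 probes on a linear scale, without background subtraction or normalization. The detection p-values deposited with them compare each probe with the negative controls of its array. A second deposited table keeps the order of probes within each array and holds quantile-normalized intensities. As in the methods, all arrays were scaled to 1 value of the 75th percentile, and log2 was taken. A probe entered the fit if both arrays of 1 or more groups detected it at p under 0.05, which 9552 probes did (7114 with a symbol). The 4 groups were fitted with limma 3.58.1 in R 4.3.3, and a Benjamini-Hochberg adjusted p under 0.05 over all kept probes counted as passing. The procedure was tested on simulated data of this design, with errors drawn independently for each array. The simulation therefore did not cover the shared deviation of arrays of the same hour that is described below.

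The 24 h and 48 h arrays served as the 2 replicates of a group. The change from 24 h to 48 h correlated between all 6 pairs of groups (r = 0.22 to 0.463 over probes), so arrays of the same hour deviated together. For the 4 genes a fit with the time point as a block is given where it changed a call. Genes of the lists and cell type markers were read from the main fit alone, and their calls with the block were not looked up. Precision is limited by the small number of arrays and, for dim probes, by the background. Every probe of the 4 symbols was described, each other class I RT1 gene was named, and from the 4 other gene lists, fixed by symbol, up to 6 probes with a detected level that passed the strain test were named by smallest p, with further members given as values. The members and lists were chosen with earlier results of these data known. The qRT-PCR, microRNA and T-cell experiments were not analysed here. Promoters were taken from RefSeq GRCr8, and tables and figures come from pandas 2.3.3, numpy 2.4.6 and matplotlib 3.10.9 under Python 3.11.15. Alternatives covered neqc (offset 16), normexp (offset 50), quantile normalization, no scaling, the second table and signals floored at 64. They also covered no detection filter or detection on all arrays, the time block, an additive fit and an intensity trend. Further alternatives were an analysis of variance of each probe alone over the 4 groups, without time, and leaving out each array.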

Additional observations from a re-analysis of the deposited data

How the results depend on the processing

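The strain differences of RT1-A1 and RT1-A3 kept their direction and passed under all alternatives run. Their log2 differences were -2.61 to -2.09 for RT1-A1 and 1.85 to 2.43 for RT1-A3. RT1-A2 could not be fitted when detection on all 8 arrays was required. It kept its direction and passed in the other fits, but with LEW below detection on every array, so this adds no support. The fitted size for RT1-A2, which is against LEW arrays below detection, was 4.13 with neqc and 2.66 to 2.77 otherwise, and only the lower bound is a measurement. The strain difference of B2m ranged from -0.76 to -0.54 and failed only by the analysis of variance over the 4 groups without time (-0.65, adjusted p = 0.0825). The LPS difference of RT1-A1 passed without a detection filter (0.65, adjusted p = 0.0398) and when time entered as a replicate block (0.65, adjusted p = 0.0146). Leaving out 1 array moved it from 0.46 to 0.84 and that of RT1-A3 from 0.29 to 0.63, and of these fits they passed in the one that lacks the LEW LPS array of 24 h. By the analysis of variance RT1-A1 and RT1-A3 did not pass within control (adjusted p = 0.0849 and 0.0816) or LPS-treated ASCs (adjusted p = 0.0911 and 0.111), and B2m in control ASCs did not pass there, with neqc or without scaling (adjusted p = 0.212, 0.0584 and 0.112). B2m in LPS-treated ASCs passed without a filter (adjusted p = 0.0373) and in the fit that lacks this array (-0.83, adjusted p = 0.0106), but had -0.39 (adjusted p = 0.387) without the LEW LPS array of 48 h. The LPS difference of B2m over both strains ranged from 0.13 to 0.35 with 1 array left out. The interaction changed sign in B2m without scaling (-0.044) and with 1 array left out (-0.15 to 0.29), and in RT1-A1 (-0.66 to 0.10) and RT1-A3 (-0.49 to 0.19) with 1 array left out. With 1 array left out the LPS difference within LEW ranged from -0.064 to 0.135 in RT1-A2, all below detection, and from -0.012 to 0.43 in B2m. No interaction of the 4 genes passed under any alternative run. The probes passing for strain numbered 844 without scaling, 2232 with the block, 465 by the analysis of variance and 851 to 1815 with 1 array left out, against 1425. For LPS they numbered 85, 585 and 9 in the same order, 340 without a filter and 29 to 482 with 1 array left out, against 216. For the interaction they numbered 5 with neqc, 1 without scaling, 6 without a filter, 1 with detection on all 8 arrays, 6 with the block, 0 by the analysis of variance and 0 to 34 with 1 array left out, against 3. The causes were not tested.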

Other observations

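Class II molecules, which present peptides to CD4 T cells, were read on the same arrays. Of 10 class II genes and partners 6 were undetected on all 8 arrays, RT1-Ba, RT1-Da, RT1-DOb, RT1-Ha, the invariant chain gene Cd74 and the class II transactivator gene Ciita, while the probe of RT1-Db1, a class II beta chain, was detected on 3 PVG arrays and on 0 LEW arrays (at least 1.14-fold higher in PVG). RT1-DMa, a chain of the class II peptide exchange factor, was detected on all 8 arrays at 156 to 166 in LEW and 120 to 141 in PVG (log2 difference -0.29, adjusted p = 0.0391 by limma). RT1-DMb, its partner chain, differed by 0.06 (adjusted p = 0.718 by limma), and RT1-DOa was detected on 3 of 8 arrays and not tested. None of the 3 class II probes tested passed for LPS, where 2.26% of all tested probes did. These RT1 probes raise the same question of sequence differences as the RT1-A probes.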
